A study of Mus musculus with 144 samples.

Results

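Splenocytes harvested early after trauma hemorrhage, an injury model that joins tissue trauma to blood loss, were compared with splenocytes of mice that had the sham procedure. The comparison holds 8 of the 144 arrays of the series: all 4 arrays titled as trauma-hemorrhage spleen at 2 hr and all 4 titled as its sham at 2 hr, chosen by title alone. Each array carried the RNA of an individual mouse, per the series design, so the 4 arrays of a group are separate animals. The labels give the species (Mus musculus), the injury and the time, and no strain, age, genotype or bleeding protocol. The spleen cells of both groups were taken up in phosphate-buffered saline, the red cells were lysed, and the RNA was labelled with biotin for the Affymetrix Mouse Genome 430 2.0 array. Against this comparison are set the same injury in spleen at 1, 3 and 7 days, the same injury in blood leukocytes at 2 hr, and burn injury in spleen at 2 hr, each with 4 injured and 4 sham arrays of its own. The sample descriptions of the burn spleen arrays name the trauma-hemorrhage model although the titles name burn. The arrays used here as blood after trauma hemorrhage have titles that name no tissue and hold the word burn beside trauma hemorrhage. They were taken as blood leukocytes of the trauma-hemorrhage model because their source name is leukocytes, which the protocol isolates from cardiac puncture, and their description names that model. For the spleen arrays the injury and tissue are those of the titles.

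The spleen filters blood and houses B cell follicles, T cell zones and a red pulp in which macrophages take up old red cells and recycle their iron. Tissue damage and blood loss release molecules that pattern-recognition receptors bind, and these receptors act through NF-kB, which drives inflammatory cytokine and chemokine genes, and through IRF transcription factors, which drive type I interferon. Secreted interferon binds its receptor on neighbouring cells and, through the ISGF3 complex, which holds STAT2 and IRF9, switches on a large set of antiviral genes, the interferon-stimulated genes.

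Markers of B and T lymphocytes were at high signal on all 8 arrays, as the label splenocytes calls for. Cd3e, a chain of the T cell receptor complex, read 14231 to 17798 in injured spleens, against 13105 to 15656 in sham spleens. Ms4a1, which codes for CD20 of B cells, read 9185 to 9752 in injured spleens, against 9126 to 11578 in sham spleens. Signals are MAS5 intensities scaled by the submitters to a common trimmed mean of 500, and have no absolute unit. Array medians ran over 57.8 to 93.6 in injured spleens and 58.8 to 98.6 in sham spleens. The 3' to 5' signal ratio of Gapdh, a sign of RNA integrity, was 2.25 to 2.61 on the injured arrays and 2.07 to 3.05 on the sham arrays. Sham arrays 1 and 4 stood apart from sham arrays 2 and 3 in markers of red cell precursors: the summed signal of 20 erythroid genes was 28011, 26979, 17722 and 19140.2 on the injured arrays, against 49176, 9396, 10594 and 89793 on the sham arrays. The 23 mitosis genes followed the same split, with 12854, 11482, 9579 and 10359.9 on the injured arrays, against 20005, 7478, 9419.8 and 39961 on the sham arrays. Sham arrays 2 and 3 carried more signal of 12 pancreatic genes, 334, 277, 281 and 230.0 on the injured arrays and 316, 4052, 3944 and 480.4 on the sham arrays, and no pancreatic gene passed the test. Results below are given with the values without shams 1 and 4 or without shams 2 and 3 where these differ.

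**Figure D1:**
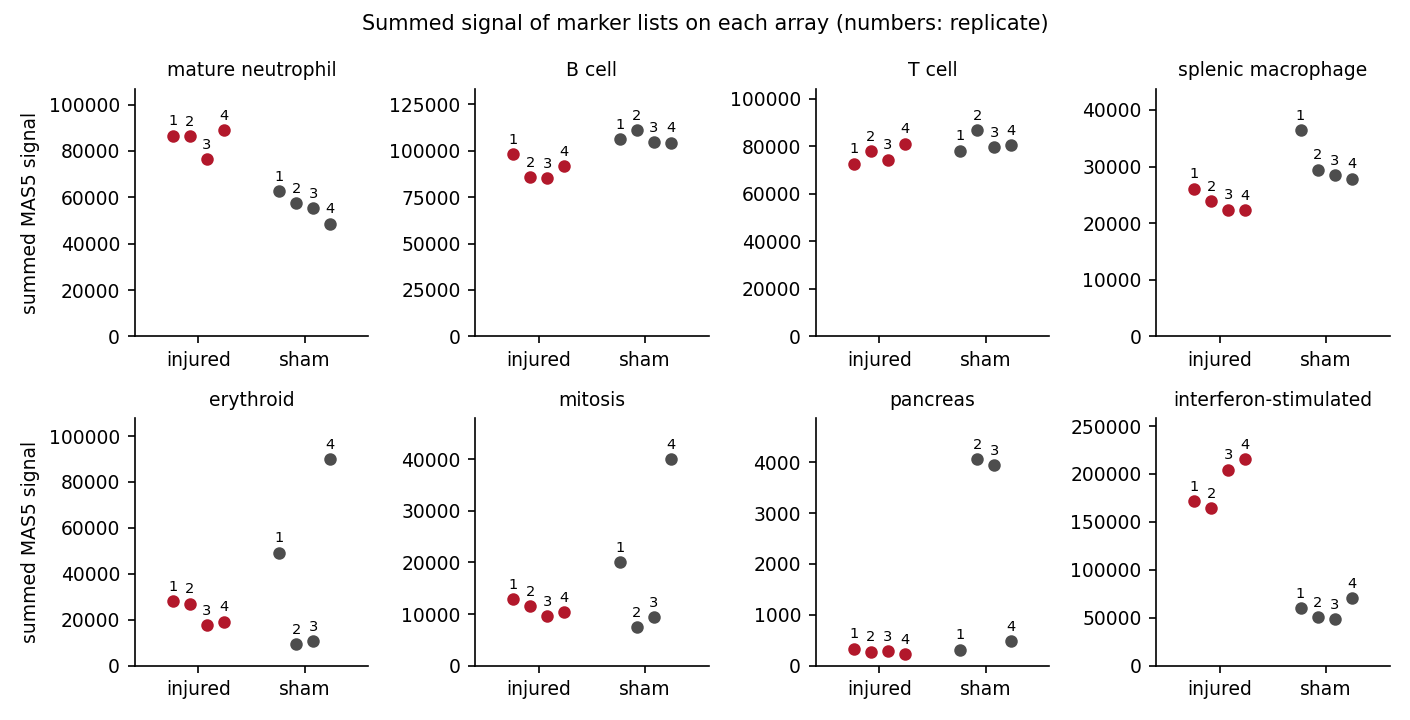
Summed signal (MAS5 intensity, vertical axes) of 8 marker lists on each of the 4 injured and 4 sham arrays; each point is an array. Sham arrays 1 and 4 are highest for erythroid and mitosis genes, the 4 injured arrays lie above the 4 sham arrays for mature neutrophil genes and below them for B cell and splenic macrophage genes.

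Of 13595 genes tested, 541 (3.98%) passed an adjusted p of 0.05 in limma's moderated test with Benjamini-Hochberg adjustment, 334 (2.46%) higher and 207 (1.52%) lower after injury. The changes were larger upward: 237 genes rose and 90 fell by more than 2-fold, and 17 rose by more than 8-fold. The 4 injured arrays lay wholly above or wholly below the 4 sham arrays for 518 of the 541 genes, while over all genes tested 864 (6.36%) were without overlap in the upward direction and 1072 (7.89%) in the downward direction. The median log2 difference of all genes tested was -0.06, close to 0. Every list count below stands beside the shares of 2.46% higher and 1.52% lower over all genes, and no list was tested as a set. Effects, and the sizes given after "rose by", are differences of log2(signal + 32), injured minus sham, with their standard error; the added 32 understates the change of dim genes. Injured and sham arrays 1 and 2 were hybridized on one day and arrays 3 and 4 on another, and within these days, with 2 arrays a group, 110 genes passed on the day of arrays 1 and 2 and 247 on the day of arrays 3 and 4. Between 348 and 495 genes passed when any single array was left out, of which 346 to 447 were among the 541, and the count was 348 without injured array 4, 357 without injured array 3, 258 without sham arrays 1 and 4 and 328 without sham arrays 2 and 3.

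Interferon-stimulated genes were the list with the largest share of members that rose, among lists chosen with earlier results of these data known. Of 35 such genes tested, 31 rose and none fell, with a median log2 difference of 2.26, against -0.06 for all genes tested, and the summed signal of the list was 164060 to 215120 on the injured arrays, against 48315 to 70367 on the sham arrays. Cxcl10, a chemokine that draws activated T cells through the receptor CXCR3, had the largest rise among the genes named by rule, with signals of 2649, 3814, 4882 and 4754 in injured spleens, against 117, 125, 116 and 99.3 in sham spleens. The lowest injured array was far above the highest sham array, and the log2 difference was 4.76 ± 0.36 (adjusted p = 2.42e-15), or 27.0-fold on this scale. Ifit3, one of the IFIT proteins that bind foreign RNA or the complexes made on it, had signals of 5979, 6588, 10039 and 11140 in injured spleens, against 483, 515, 562 and 485 in sham spleens, without overlap. Its log2 difference was 3.91 ± 0.29 (adjusted p = 6.22e-16). Its neighbour in the family, Ifit1, which binds RNA with a foreign cap, had 11175, 11198, 13521 and 15073 in injured spleens, against 916, 727, 834 and 1201 in sham spleens. Ifit1 did not overlap between the groups and had a log2 difference of 3.76 ± 0.33 (adjusted p = 5.07e-13). Ifit2, the family member known for binding AU-rich RNA, rose by 3.41 ± 0.25 (adjusted p = 6.22e-16).

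Mx1, a dynamin-like GTPase that traps viral particles, had signals of 7150.4, 8694, 11879 and 14574 in injured spleens, against 697, 572, 511 and 847 in sham spleens. These groups did not overlap, and the log2 difference was 3.92 ± 0.33 (adjusted p = 4.82e-14); its paralog Mx2 rose by 3.98 ± 0.36 (adjusted p = 8.31e-13). Usp18, the protease that removes ISG15 and damps the interferon receptor, had 5092, 5404, 7719 and 7352 in injured spleens, against 473, 539.8, 424 and 646 in sham spleens. Usp18 did not overlap between the groups and had a log2 difference of 3.53 ± 0.31 (adjusted p = 2.93e-13). Further up the pathway, Irf7, the transcription factor that amplifies interferon production, rose by 2.31 ± 0.32 (adjusted p = 2.98e-07), and Stat2 and Irf9, parts of ISGF3, rose by 2.16 ± 0.32 (adjusted p = 1.47e-06) and 0.89 ± 0.19 (adjusted p = 0.00163). Of the 2',5'-oligoadenylate synthetase family, which senses double-stranded RNA, Oas1a, Oas2 and Oasl1 rose by 2.26, 2.24 and 3.28 (adjusted p = 9.93e-09, 6.25e-06 and 5.84e-10). The immunity-related GTPases, which coat and break up the vacuoles of intracellular parasites, were represented by Irgm1, Igtp and Iigp1, with log2 differences of 2.45, 2.02 and 2.95 (adjusted p = 4.64e-14, 6.16e-10 and 1.33e-10). Sensors of RNA and DNA that are themselves interferon-induced rose as well. Ifih1, which codes for MDA5, rose by 2.35 ± 0.28 (adjusted p = 4.05e-09). Dhx58, which codes for LGP2, rose by 2.86 ± 0.26 (adjusted p = 8.92e-13). Zbp1, a sensor of Z-form nucleic acid, rose by 2.29 ± 0.26 (adjusted p = 1.94e-09).

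The 4 members that did not pass were Rsad2, Isg20, Ifi35 and Cxcl11. Rsad2, which codes for the antiviral enzyme viperin, read 15946, 15137, 18309 and 19909 in injured spleens, against 10321, 2191, 2084 and 15543 in sham spleens, so that sham arrays 1 and 4 lay near the injured arrays and sham arrays 2 and 3 far below them (adjusted p = 0.0738). Isg20, an exonuclease, read 4039, 2956, 4504 and 4535 in injured spleens, against 1716, 481, 442 and 4377 in sham spleens, with the same split between the shams (adjusted p = 0.0554). Ifi35 did not overlap between the groups, at 16951 to 19140 in injured spleens, against 8745 to 10253 in sham spleens (adjusted p = 0.0605). Cxcl11, a chemokine of the same receptor as Cxcl10, was dim and overlapped, at 58.5 to 232 in injured spleens, against 29.7 to 150.2 in sham spleens (adjusted p = 0.708). The count of 31 was 28 to 30 when any single array was left out, 30 without shams 1 and 4, 28 without shams 2 and 3, and 25 and 28 within the hybridization days.

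**Figure D2:**
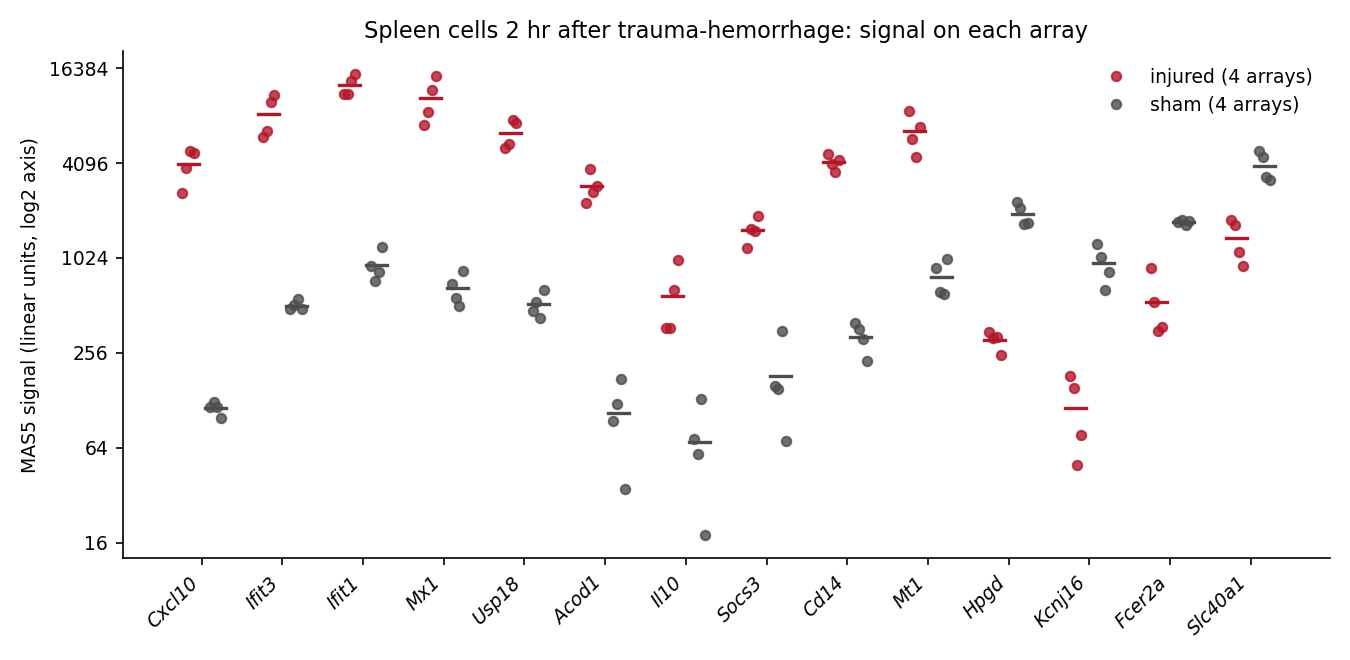
Signal (log2 axis, MAS5 intensity) of 14 genes on each injured and each sham array; points are arrays. Injured arrays lie above sham arrays for the 10 genes from Cxcl10 to Mt1 and below them for Hpgd, Kcnj16, Fcer2a and Slc40a1.

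The 250 bases before the RefSeq transcription start (build GRCm38.p6) were searched on both strands for 8 motifs. Candidates for display were the 43 genes with a call among the largest rises, the largest falls and the fixed set of injury genes. Of these, 32 had a promoter that entered the count, and the others were left out. Genes named only by a list or a difference test were not candidates. The promoters of the 5 candidates with at least 3 matches are shown. They set the letters of such elements beside the signals given above and below. Another 7 candidates had 2 matches. Cxcl10 lies at chr5:92348890-92349139 (minus strand), Ifit3 at chr19:34583279-34583528 (plus strand), Ifit1 at chr19:34640639-34640888 (plus strand), Cxcl1 at chr5:90890995-90891244 (plus strand) and Tnfaip3 at chr10:19015411-19015660 (minus strand), each written 5' to 3' on the gene's strand with motif matches in capitals.
Cxcl10: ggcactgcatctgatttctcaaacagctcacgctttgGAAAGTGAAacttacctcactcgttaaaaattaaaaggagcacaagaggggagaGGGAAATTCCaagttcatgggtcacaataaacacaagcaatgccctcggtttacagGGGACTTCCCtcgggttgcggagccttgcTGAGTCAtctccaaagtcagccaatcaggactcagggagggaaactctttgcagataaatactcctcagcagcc
Ifit3: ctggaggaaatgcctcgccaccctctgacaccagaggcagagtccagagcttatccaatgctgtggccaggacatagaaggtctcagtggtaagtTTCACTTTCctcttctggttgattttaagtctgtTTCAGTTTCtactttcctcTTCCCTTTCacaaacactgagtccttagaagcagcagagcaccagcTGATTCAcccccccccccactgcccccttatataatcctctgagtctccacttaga
Ifit1: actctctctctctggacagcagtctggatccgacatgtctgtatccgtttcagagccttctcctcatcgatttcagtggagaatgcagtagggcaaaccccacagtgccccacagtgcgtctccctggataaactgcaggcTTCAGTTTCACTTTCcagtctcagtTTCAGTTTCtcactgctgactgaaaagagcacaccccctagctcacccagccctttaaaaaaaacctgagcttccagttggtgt
Cxcl1: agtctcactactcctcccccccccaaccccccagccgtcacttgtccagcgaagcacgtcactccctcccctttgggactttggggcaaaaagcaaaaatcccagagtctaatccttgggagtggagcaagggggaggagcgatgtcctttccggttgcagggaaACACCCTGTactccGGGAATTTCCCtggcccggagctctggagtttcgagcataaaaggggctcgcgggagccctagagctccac
Tnfaip3: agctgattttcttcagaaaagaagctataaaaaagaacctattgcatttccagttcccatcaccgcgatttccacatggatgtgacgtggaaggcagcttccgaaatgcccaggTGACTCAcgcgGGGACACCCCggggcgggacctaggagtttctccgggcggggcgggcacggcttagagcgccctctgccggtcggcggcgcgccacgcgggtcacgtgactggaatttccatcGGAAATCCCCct
In Cxcl10 the capitals mark, from the far end to the start site, an interferon response element, 2 kappa B elements and an AP-1 element. Ifit3 and Ifit1 each hold 3 interferon response elements, which overlap in part in Ifit1, and Ifit3 an AP-1 element nearer the start. Cxcl1 holds a glucocorticoid element and 2 kappa B matches that overlap by all but a base, and Tnfaip3 an AP-1 element and 2 kappa B elements.

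The interferon response element GAAANNGAA was present in 45 of 276 promoters of genes that rose (16.3%) and in 10 of 159 of genes that fell (6.29%), against 6.38% of 10926 genes tested and 7.16% of all 27025 promoters. Among members of the interferon-stimulated list that rose and had a promoter it was present in 14 of 22 (63.6%), a set known for this element. The kappa B element, searched as a pattern of letters and given here by name only, was in 8.7% of promoters of genes that rose. It was in 4.4% of those that fell, 4.3% of genes tested and 3.75% of all promoters. The AP-1 element TGANTCA was in 8.7% of those that rose, 5.66% of those that fell, 4.79% of genes tested and 6.87% of all. The metal response element TGCGCNC was in 16.7% of promoters of genes that rose, below the 20.7% of genes tested and above the 12.6% of all. Of genes that rose, 6.88% held the heat shock element GAANNTTC, against 5.18% of genes tested and 6.78% of all. The glucocorticoid element ACANNNTGT was in 4.71% of those that rose, 4.1% of genes tested and 5.91% of all. For the cAMP element TGACGTCA these shares were 0.725%, 2.45% and 1.62%, and for the serum response element CCNTATNNG 5.8%, 4.31% and 4.77%. A match is a description of letters and not of binding.

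Sensors and interferon genes changed in part. Of 19 genes for interferons, their receptors and nucleic acid sensors, 6 rose and 1 fell. Cgas, the cytosolic DNA sensor that makes cyclic GMP-AMP, had signals of 2828, 3864, 4846 and 4891 in injured spleens, against 881, 695, 767 and 801 in sham spleens. Cgas did not overlap between the groups and had a log2 difference of 2.31 ± 0.26 (adjusted p = 7.16e-10). Ddx58, which codes for the RNA sensor RIG-I, rose by 1.34 ± 0.18 (adjusted p = 1.97e-07), and the endosomal RNA receptors Tlr7 and Tlr3 by 2.13 ± 0.33 (adjusted p = 3.59e-06) and 1.31 ± 0.21 (adjusted p = 1.08e-05). Irf1, a transcription factor downstream of interferon gamma, rose by 0.89 ± 0.19 (adjusted p = 0.00176). Ifng itself, the interferon of NK and T cells, read 269, 414, 775 and 783 in injured spleens, against 131, 107, 196 and 164 in sham spleens. Its groups did not overlap, and the call depended on single arrays (1.61, adjusted p = 0.021, and 0.0606 to 0.12 without injured array 3 or 4 or sham array 1 or 2). Mavs, the mitochondrial adaptor of the RNA sensors, fell, with 95.2, 88.9, 70.9 and 38.9 in injured spleens, against 223, 206, 214 and 256 in sham spleens (-1.31, adjusted p = 0.00503, and 0.0501 without injured array 4). Ifng and Mavs missed the threshold without shams 1 and 4, as did Ifng without shams 2 and 3, and Ifng and Mavs with quantile normalization, and Ifng with a pseudocount of 1. Ifnb1, the interferon beta gene, was too dim to be tested, with 15.5, 34.3, 4.87 and 34.2 on the injured arrays and 9.94, 47.1, 7.06 and 4.72 on the sham arrays.

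Cytokine genes rose in a minority. Of 19 tested, 5 rose and none fell. Within the hybridization day of arrays 1 and 2 the count of rises was 0, and within that of arrays 3 and 4 it was 4. Il10, an anti-inflammatory cytokine of macrophages and lymphocytes, had signals of 366, 366, 641 and 991 in injured spleens, against 72.5, 58.3, 131 and 17.8 in sham spleens. Il10 did not overlap between the groups and had a log2 difference of 2.62 ± 0.42 (adjusted p = 1.07e-05). Il15, which sustains NK cells and memory CD8+ T cells, rose by 1.97 ± 0.37 (adjusted p = 0.000177). Tnfsf10, which codes for the death ligand TRAIL, rose by 1.71 ± 0.26 (adjusted p = 3e-06). Il33, an alarmin of stromal cells, rose by 2.00 ± 0.39 (adjusted p = 0.000313). Csf1, the growth factor of macrophages, also rose (1.92, adjusted p = 0.0132, and 0.0519 without injured array 4). The threshold was missed by Csf1 without shams 1 and 4, and by Csf1 without shams 2 and 3, and by Csf1 with probe sets averaged. The classical injury cytokines did not pass. Il6 read 58.9, 47.0, 219.6 and 106 in injured spleens, against 1.78, 2.52, 50.2 and 1.54 in sham spleens, with sham array 3 close to the lower injured arrays (adjusted p = 0.0562). Tnf read 157 to 306 in injured spleens, against 42.9 to 115 in sham spleens (adjusted p = 0.125) and Il1b 1901 to 2899 in injured spleens, against 644 to 2104 in sham spleens (adjusted p = 0.14).

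Chemokine genes rose in a larger share of cases. Of 18 tested, 7 rose and none fell, and all 7 stayed past the threshold when any single array was left out. Besides Cxcl10, Cxcl9, another CXCR3 ligand, had signals of 1825, 2729.6, 2412 and 2498 in injured spleens, against 280.2, 178, 127 and 168 in sham spleens. Cxcl9 did not overlap between the groups and had a log2 difference of 3.47 ± 0.30 (adjusted p = 2.93e-13). Ccl4, a chemokine made by macrophages and cytotoxic lymphocytes, had 597, 762, 1649 and 1712 in injured spleens, against 75.0, 34.8, 63.3 and 74.9 in sham spleens. Ccl4 did not overlap between the groups and had a log2 difference of 3.57 ± 0.41 (adjusted p = 2.28e-09), and its partner Ccl3 rose by 2.32 ± 0.39 (adjusted p = 1.79e-05). Cxcl2, Cxcl1 and Cxcl3 are ligands of the neutrophil receptor CXCR2. Cxcl2 read 2783, 3905, 7498 and 7691 in injured spleens, against 198, 119, 3533 and 57.8 in sham spleens; sham array 3 was above injured array 1, so the groups overlapped, and the log2 difference was 3.95 ± 0.80 (adjusted p = 0.000596). Cxcl1 and Cxcl3 rose by 2.06 ± 0.47 (adjusted p = 0.00273) and 2.24 ± 0.43 (adjusted p = 0.000198). Calls lost without shams 1 and 4 were those of Cxcl2 and Cxcl1. In that set 5 chemokine genes passed. Ccl2, which draws monocytes, stayed dim at 37.3 to 94.7 in injured spleens, against 8.01 to 55.2 in sham spleens (adjusted p = 0.466).

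Receptors that steer leukocytes split, 3 of 20 higher and 3 lower. Ccrl2, a receptor that presents the attractant chemerin without signalling, rose by 2.60 ± 0.41 (adjusted p = 7.47e-06). Icam1, the adhesion ligand of LFA-1, rose by 1.16 ± 0.23 (adjusted p = 0.000281). Ccr6, the receptor of Ccl20 on B cells and Th17 cells, rose by 1.17 ± 0.23 (adjusted p = 0.000304). S1pr4, a sphingosine-1-phosphate receptor of lymphocytes, fell, with 578, 709.9, 399.7 and 541 in injured spleens, against 1002, 1094, 1142 and 1294 in sham spleens. These groups did not overlap, and S1pr4 averaged 557 in injured spleens and 1133 in sham spleens (limma adjusted p = 0.000398). Cxcr3, the receptor of Cxcl9 and Cxcl10, fell (-0.87, adjusted p = 0.0085, and 0.0565 to 0.0765 without injured array 3 or 4). Itgb7, an integrin of gut-homing lymphocytes, fell (-0.85, adjusted p = 0.0149, and 0.055 to 0.143 without injured array 3 or sham array 3 or 4). Cxcr4, which holds leukocytes in the marrow and spleen, read 12515 to 15428 in injured spleens, against 13537 to 15989 in sham spleens and did not pass (adjusted p = 0.964). Cxcr3 and Itgb7 missed the threshold without shams 1 and 4, as did Itgb7 without shams 2 and 3.

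Feedback genes of inflammatory signalling rose without a fall in any of 3 lists. In the SOCS and cytokine feedback list 6 of 14 rose. Socs3, the inhibitor of IL-6 family receptors, had signals of 1185, 1557, 1524 and 1882 in injured spleens, against 158, 152, 355 and 70.5 in sham spleens. Socs3 did not overlap between the groups and had a log2 difference of 3.01 ± 0.40 (adjusted p = 1.25e-07); Cish, the STAT5-induced inhibitor, rose by 1.24 ± 0.30 (adjusted p = 0.00553). The other risers depended on single arrays. Tnfrsf1b, a receptor of TNF, rose (0.97, adjusted p = 0.00585, and 0.0538 without sham array 3). Stat3, the transcription factor of IL-6 and IL-10, rose (1.11, adjusted p = 0.0263, and 0.0511 to 0.159 without injured array 2, 3 or 4 or sham array 2 or 4). Il6st, the shared receptor chain gp130, rose (0.66, adjusted p = 0.0348, and 0.0668 to 0.134 without injured array 2, 3 or 4 or sham array 2, 3 or 4). Bcl6, a repressor of germinal centre B cells, rose (0.56, adjusted p = 0.0388, and 0.0609 to 0.123 without any 1 of the 8 arrays). The threshold was missed by Cish, Stat3, Il6st and Bcl6 without shams 1 and 4, and by Tnfrsf1b, Stat3, Il6st and Bcl6 without shams 2 and 3, and by Tnfrsf1b and Il6st with probe sets averaged, and by Stat3 with quantile normalization, and by Bcl6 with no filter. The count for this list was 2 without shams 1 and 4 and 2 without shams 2 and 3.

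Of 20 NF-kB genes, 6 rose. Tnfaip3, the enzyme A20 that ends NF-kB signalling, had 2167, 2806, 3448 and 3052 in injured spleens, against 1024, 929, 1381 and 989.9 in sham spleens. Tnfaip3 did not overlap between the groups and had a log2 difference of 1.38 ± 0.26 (adjusted p = 0.000144), and Bcl3, an atypical inhibitor protein of the nucleus, rose by 1.93 ± 0.26 (adjusted p = 1.09e-07). Icam1, given above, is also in this list. Cd40, a receptor of antigen-presenting cells, rose (0.79, adjusted p = 0.0226, and 0.07 to 0.103 without injured array 1 or 4 or sham array 1 or 4). Tnfaip2, a TNF-induced gene, rose (1.56, adjusted p = 0.0345, and 0.0509 to 0.16 without any 1 of the 8 arrays). Birc3, an inhibitor of apoptosis, rose (0.80, adjusted p = 0.0435, and 0.0745 to 0.192 without injured array 2, 3 or 4 or sham array 1 or 2). Nfkbia, the main inhibitor of NF-kB, was already bright and did not pass, at 16735 to 20535 in injured spleens, against 14268 to 16996 in sham spleens (adjusted p = 0.867); Zfp36, which speeds decay of cytokine messages, overlapped (adjusted p = 0.606). Of 18 genes of the interleukin-1 system, 6 rose. Il1rn, the receptor antagonist, had signals of 3504, 3831, 4538 and 3940.3 in injured spleens, against 724, 597, 551 and 195 in sham spleens. Il1rn did not overlap between the groups and had a log2 difference of 2.99 ± 0.43 (adjusted p = 6.81e-07). Il1r2, the decoy receptor, rose by 2.35 ± 0.51 (adjusted p = 0.00157). Casp4, a cytosolic sensor of lipopolysaccharide, rose by 2.46 ± 0.22 (adjusted p = 8.92e-13). Myd88, the adaptor, rose by 1.26 ± 0.23 (adjusted p = 8.69e-05). Irak3, a brake on that adaptor, rose by 0.77 ± 0.20 (adjusted p = 0.01). The agonist gene Il1a also rose (1.54, adjusted p = 0.0119, and 0.0501 to 0.0609 without injured array 3 or 4 or sham array 1). Calls lost without shams 1 and 4 were those of Cd40, Tnfaip2, Birc3, Il1r2, Irak3 and Il1a; without shams 2 and 3, Tnfaip2, Birc3 and Irak3; with probe sets averaged, Tnfaip2, Birc3 and Irak3; with quantile normalization, Cd40, Tnfaip2, Irak3 and Il1a; with no filter, Birc3; with a pseudocount of 1, Tnfaip2 and Il1a. In the interleukin-1 list 3 members passed without shams 1 and 4 and 7 without shams 2 and 3.

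Among 19 Toll-like and other innate receptors, 6 rose. Cd14, the co-receptor of Toll-like receptor 4, had signals of 4693, 4053, 3598 and 4289 in injured spleens, against 398, 363, 312 and 228 in sham spleens. Cd14 did not overlap between the groups and had a log2 difference of 3.57 ± 0.39 (adjusted p = 6.16e-10), or 11.9-fold on this scale. Clec4e, which codes for the lectin Mincle, a receptor of damaged cells, rose by 2.93 ± 0.63 (adjusted p = 0.00132). Tlr2, a receptor of lipoproteins, rose by 1.49 ± 0.34 (adjusted p = 0.00263). Fcgr2b, the inhibitory Fc receptor, rose by 1.36 ± 0.23 (adjusted p = 3.37e-05). Msr1, a scavenger receptor, rose (1.38, adjusted p = 0.0106, and 0.0549 without sham array 3). Fcgr4, an activating Fc receptor, rose (0.89, adjusted p = 0.0206, and 0.056 to 0.0902 without injured array 3 or 4 or sham array 1 or 2). Genes of suppressive myeloid cells rose in 4 of 10 cases. Acod1, the enzyme that makes itaconate from the citric acid cycle, had signals of 2302, 3738, 2696 and 2948 in injured spleens, against 94.1, 121, 175 and 35.3 in sham spleens. Its groups did not overlap and the log2 difference was 4.51 ± 0.59 (adjusted p = 7.01e-08). Thbs1, which codes for thrombospondin-1 and also belongs to the coagulation list, had 1394, 2607, 2495 and 2014 in injured spleens, against 132, 143, 97.2 and 84.1 in sham spleens. Thbs1 did not overlap between the groups and had a log2 difference of 3.87 ± 0.53 (adjusted p = 2.56e-07). Cd274, which codes for the checkpoint ligand PD-L1, rose by 1.53 ± 0.27 (adjusted p = 5.52e-05), and the mitochondrial arginase Arg2 rose (1.67, adjusted p = 0.0126, and 0.138 without sham array 4). Arg1, the cytosolic arginase, was dim at 6.11 to 48.1 in injured spleens, against 3.49 to 14.0 in sham spleens (adjusted p = 0.844). Nos2, the inducible nitric oxide synthase, was below the filter, at 1.21, 6.27, 3.22 and 6.56 in injured spleens and 4.03, 4.16, 5.67 and 2.13 in sham spleens. Ptgs2, which codes for an inducible cyclooxygenase, did not pass (adjusted p = 0.297). It read 244, 587, 909 and 649.8 in injured spleens, against 77.7, 169, 911 and 133 in sham spleens, with sham array 3 as high as the highest injured array. Tlr2, Msr1, Fcgr4 and Arg2 missed the threshold without shams 1 and 4, as did Msr1 and Fcgr4 without shams 2 and 3, and Msr1 with probe sets averaged, and Arg2 with quantile normalization, and Clec4e with a pseudocount of 1.

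The mature neutrophil markers moved beside these myeloid genes. Their summed signal over 18 genes was 76489 to 88904 on the injured arrays, against 48511 to 62601 on the sham arrays, without overlap, and 4 of 18 rose, with a median log2 difference of 0.87; 11 of the 18 lay without overlap above the shams, against 6.36% of all genes tested. Hdc, which makes histamine, had signals of 3285, 3103, 2255 and 3533 in injured spleens, against 572, 546, 412 and 459 in sham spleens and rose by 2.53 ± 0.54 (adjusted p = 0.00126). Fpr2, a formyl peptide receptor, rose by 1.73 ± 0.43 (adjusted p = 0.00832), and Il1r2, given above, is a marker of the same cells. Mxd1, which codes for a partner of MAX, rose (1.30, adjusted p = 0.0199, and 0.0543 to 0.0844 without injured array 3 or 4 or sham array 2 or 4). None of 13 granule genes passed, and the abundant alarmin S100a8 read 21048 to 24051 in injured spleens, against 16593 to 19610 in sham spleens (adjusted p = 0.925). Its partner S100a9 read 21883 to 24747 in injured spleens, against 17224 to 19136 in sham spleens (adjusted p = 0.88). Of the 18 markers, 1 passed without shams 1 and 4, 2 without shams 2 and 3, 0 and 1 within the hybridization days, and 10 when only the 8 arrays compared were fitted. The threshold was missed by Fpr2 and Mxd1 without shams 1 and 4, and by Fpr2 and Mxd1 without shams 2 and 3, and by Mxd1 with probe sets averaged. How far neutrophil number contributes to the innate receptor, interleukin-1 and chemokine rises was not tested. In bulk RNA, a change in the number of cells of a type and a change in RNA per cell cannot be told apart.

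Of 23 immediate-early genes, which answer growth and stress signals without new protein, 5 rose and 1 fell. Jun, a subunit of AP-1, had 4725, 5912, 6870 and 7866 in injured spleens, against 897, 789, 2874 and 1415 in sham spleens. Jun did not overlap between the groups and had a log2 difference of 2.23 ± 0.47 (adjusted p = 0.00104). Nr4a3, an orphan nuclear receptor, rose by 1.54 ± 0.24 (adjusted p = 5.38e-06). Atf3, a stress-induced repressor, rose by 1.64 ± 0.38 (adjusted p = 0.00327). Ier3 rose by 2.18 ± 0.37 (adjusted p = 3.29e-05). Fosl2, another AP-1 subunit, rose by 1.06 ± 0.23 (adjusted p = 0.00132). Egr3, of the zinc finger family of Egr1, fell (-0.86, adjusted p = 0.0287, and 0.0564 to 0.131 without injured array 3 or 4 or sham array 1, 2 or 3). The fastest members were not separated between the groups. Fos read 3330.4, 5507, 12414 and 12041 in injured spleens, against 2044, 775, 13384 and 5065 in sham spleens and its groups overlapped (adjusted p = 0.542), and Egr1, Dusp1 and Nr4a1 had log2 differences of -0.05, 0.39 and -0.46 (adjusted p = 0.997, 0.913 and 0.646). Myc was 1132 to 3339.7 in injured spleens, against 452 to 1544 in sham spleens (adjusted p = 0.152). Calls lost without shams 1 and 4 were those of Jun, Atf3, Fosl2 and Egr3; without shams 2 and 3, Egr3; with probe sets averaged, Fosl2 and Egr3. The list count was 2 without shams 1 and 4.

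Feedback regulators of MAP kinase and G protein signalling rose in 6 of 14 cases and fell in 1. Gem, a small GTPase, rose by 1.94 ± 0.30 (adjusted p = 4.16e-06). Spred1, an inhibitor of the RAS pathway, rose by 1.22 ± 0.20 (adjusted p = 1.37e-05). Gadd45b rose by 1.38 ± 0.29 (adjusted p = 0.000835). Dusp16, a phosphatase of JNK, rose by 0.99 ± 0.23 (adjusted p = 0.00333). Gadd45g, a stress gene, rose (1.59, adjusted p = 0.0101, and 0.0669 without sham array 2). Dusp5, a phosphatase of ERK, rose (1.17, adjusted p = 0.0177, and 0.0519 to 0.0876 without injured array 2, 3 or 4 or sham array 2). Rgs2, which shortens signalling through Gq-coupled receptors, was the member that fell, with 1709, 1376, 1399 and 1722 in injured spleens, against 4582, 4217, 3688 and 4229 in sham spleens. Rgs2 did not overlap between the groups and had a log2 difference of -1.41 ± 0.23 (adjusted p = 1.08e-05). Crem, the cAMP-responsive modulator that includes the repressor ICER, had 1056, 809.5, 1049 and 1143 in injured spleens, against 149.6, 201, 58.0 and 224 in sham spleens, without overlap, and was the single riser (adjusted p = 5.5e-08) of 12 cAMP-response genes. Rnd1, a small GTPase that belongs to none of the lists, had 892, 1132, 979 and 859.8 in injured spleens, against 48.6, 83.2, 134 and 34.2 in sham spleens. Rnd1 did not overlap between the groups and had a log2 difference of 3.30 ± 0.38 (adjusted p = 1.45e-09). Dusp5 missed the threshold without shams 1 and 4, as did Dusp16, Gadd45g and Dusp5 without shams 2 and 3, and Gadd45g with quantile normalization.

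Of 10 metallothionein and zinc genes, 2 rose. Mt1, which codes for a small zinc- and copper-binding protein, had signals of 8815, 5796, 4473 and 6947 in injured spleens, against 887, 619, 604 and 1013 in sham spleens. Mt1 did not overlap between the groups and had a log2 difference of 3.00 ± 0.38 (adjusted p = 3.91e-08), and Mt2 rose by 2.93 ± 0.52 (adjusted p = 6.71e-05). Of 26 glucocorticoid-responsive genes, 4 rose, including Mt1 and Mt2. The other two were Cdkn1a, the cell cycle inhibitor p21, at 1.73 ± 0.34 (adjusted p = 0.000301), and Tgm2, tissue transglutaminase, at 1.16 ± 0.26 (adjusted p = 0.00263). The genes most used as readouts of the glucocorticoid receptor did not pass: Fkbp5 read 1916, 2617, 1966 and 1841 in injured spleens, against 1260, 1028, 1422 and 1344 in sham spleens, without overlap (adjusted p = 0.169). Per1 and Tsc22d3 had log2 differences of -0.06 and -0.15 (adjusted p = 0.995 and 0.982). Pdk4, which holds back pyruvate oxidation, did not pass either (adjusted p = 0.735). The threshold was missed by Tgm2 without shams 2 and 3.

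Of 24 glycolysis and hypoxia genes, 4 rose. Pfkfb3, the enzyme that makes the activator of phosphofructokinase, had 2038, 2057, 2522 and 2472 in injured spleens, against 936, 1035, 954 and 975 in sham spleens. Pfkfb3 did not overlap between the groups and had a log2 difference of 1.19 ± 0.19 (adjusted p = 1.06e-05). Hk2, a hexokinase, rose by 0.92 ± 0.20 (adjusted p = 0.00225), as did lactate dehydrogenase and phosphofructokinase genes. Ldha rose (0.55, adjusted p = 0.0225, and 0.0543 to 0.101 without injured array 1 or 2 or sham array 1, 2 or 3). Pfkp rose (0.54, adjusted p = 0.0316, and 0.0502 to 0.11 without injured array 1, 2, 3 or 4 or sham array 1, 2 or 3). Hif1a and Vegfa, the hypoxia transcription factor and its angiogenic target, had log2 differences of 0.34 and 0.17 (adjusted p = 0.448 and 0.992). Of 16 oxidative defence and iron genes, Txnrd1, thioredoxin reductase, rose by 0.66 ± 0.16 (adjusted p = 0.00591). The cystine transporter Slc7a11 rose (1.77, adjusted p = 0.00885, and 0.0632 without sham array 2). Hmox1, which breaks down heme, read 2683, 3087, 2246 and 2284 in injured spleens, against 4417, 3877, 4039 and 2649 in sham spleens and did not pass (adjusted p = 0.725). Calls lost without shams 1 and 4 were those of Ldha, Pfkp, Txnrd1 and Slc7a11; without shams 2 and 3, Hk2, Ldha, Pfkp and Txnrd1; with probe sets averaged, Pfkfb3 and Pfkp; with quantile normalization, Pfkp. The glycolysis count was 2 without shams 1 and 4 and 1 without shams 2 and 3.

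Lymphocyte activation genes rose in 7 of 20 cases and none fell. Tnfrsf9, which codes for 4-1BB, had signals of 2105, 1432, 1753 and 1866 in injured spleens, against 660.1, 659, 448 and 665 in sham spleens. Tnfrsf9 did not overlap between the groups and had a log2 difference of 1.51 ± 0.22 (adjusted p = 1.33e-06). Ctla4, the checkpoint receptor of T cells, rose by 1.47 ± 0.34 (adjusted p = 0.00315). Cd83 rose by 0.79 ± 0.16 (adjusted p = 0.000608). Cd86, a costimulatory ligand, rose by 1.19 ± 0.30 (adjusted p = 0.00901). Tnfrsf4, which codes for OX40, rose by 0.95 ± 0.24 (adjusted p = 0.00838). Cd69, which keeps lymphocytes from leaving tissue, rose (1.13, adjusted p = 0.0127, and 0.053 to 0.058 without injured array 4 or sham array 4). Ebi3, a subunit of IL-27, rose (0.88, adjusted p = 0.0391, and 0.0891 to 0.218 without injured array 1 or 2 or sham array 1, 2 or 3). Of the list, 3 passed without shams 1 and 4. Gzmb, the serine protease of cytotoxic granules, had 1194, 1165, 1766 and 1770.1 in injured spleens, against 92.0, 119.5, 192 and 40.8 in sham spleens. The groups did not overlap, the log2 difference was 3.48 ± 0.38 (adjusted p = 6.16e-10), and it was the single riser of 17 NK and cytotoxic genes. Fas, the death receptor, rose by 1.68 ± 0.28 (adjusted p = 2.52e-05). Casp8, its caspase, rose by 0.76 ± 0.19 (adjusted p = 0.00694), the 2 risers of 17 apoptosis genes. Prdm1, which codes for the plasma cell factor BLIMP-1, rose by 0.99 ± 0.22 (adjusted p = 0.00193), 1 of 9 plasma cell genes. Over all genes tested, 2.46% rose, so 1 call in such a list is not read as a result about the list. Tap1, the peptide transporter, was the single riser of 13 genes of class I loading (1.16 ± 0.22, adjusted p = 0.000296). Ifi30, a thiol reductase, was that of 11 genes of class II presentation (0.82, adjusted p = 0.0256, and 0.0516 to 0.121 without injured array 1, 2 or 4 or sham array 1, 2 or 3). In the class I list 12 of 13 genes had a log2 difference above 0, against 5747 of the 13595 genes tested. Without overlap above the shams lay 6 of these 13, against 6.36% of all genes tested. The summed class I signal was 94103 to 110270 on the injured arrays, against 80181 to 88587 on the sham arrays. Ctla4, Cd86, Tnfrsf4, Cd69, Casp8, Prdm1 and Ifi30 missed the threshold without shams 1 and 4, as did Cd86, Ebi3 and Ifi30 without shams 2 and 3, and Tnfrsf9 and Tap1 with probe sets averaged, and Cd86, Tnfrsf4 and Ebi3 with quantile normalization, and Ebi3 with no filter, and Ebi3 with a pseudocount of 1.

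Of the lists, the B cell markers had the most falls. Of 19 B cell markers, 6 fell, against 1.52% of all genes tested, and none rose. Their summed signal was 85041 to 98177 on the injured arrays, against 104337 to 110983 on the sham arrays. Fcer2a, which codes for the low-affinity IgE receptor CD23 of mature B cells, had signals of 882, 537, 352 and 373 in injured spleens, against 1738, 1789, 1656 and 1745 in sham spleens. Fcer2a did not overlap between the groups and had a log2 difference of -1.73 ± 0.26 (adjusted p = 1.91e-06). Bank1, a scaffold of B cell receptor signalling, had 4118, 2363, 2839.7 and 2387 in injured spleens, against 5557, 6242, 6263 and 5517 in sham spleens. Bank1 did not overlap between the groups and had a log2 difference of -1.04 ± 0.19 (adjusted p = 0.00011). Spib, a transcription factor of B cells, had 4666, 5358, 3812 and 4694 in injured spleens, against 9070.4, 8583, 7863 and 10060 in sham spleens. Its log2 difference was -0.94 ± 0.17 (adjusted p = 0.000103). Cr2, the complement receptor CD21, fell (-0.78, adjusted p = 0.0213, and 0.0549 to 0.116 without injured array 2, 3 or 4 or sham array 1, 2 or 3). Cd79b, a chain of the B cell receptor, fell (-0.56, adjusted p = 0.0223, and 0.0653 to 0.101 without injured array 3 or 4 or sham array 2 or 4). Ralgps2, an exchange factor of RAL, fell (-0.63, adjusted p = 0.0469, and 0.0625 to 0.154 without any 1 of the 8 arrays). Ms4a1 did not pass (log2 difference -0.16 ± 0.14, adjusted p = 0.84), and 3 of the 6 passed without shams 1 and 4, 3 without shams 2 and 3. Within the hybridization day of arrays 1 and 2 the count of B cell falls was 0, and within that of arrays 3 and 4 it was 3. T cell genes fell in 2 of 21 cases, against the same 1.52% of all genes tested. Cd5, a dampener of antigen receptor signalling, had 292, 342, 252 and 303 in injured spleens, against 832, 613, 797 and 775 in sham spleens. Cd5 had a log2 difference of -1.25 ± 0.18 (adjusted p = 8.67e-07). Cd8a, the co-receptor of cytotoxic T cells, fell (-0.60, adjusted p = 0.0345, and 0.0542 to 0.187 without injured array 1, 3 or 4 or sham array 1, 2, 3 or 4). Cd3e did not pass (adjusted p = 0.982). The threshold was missed by Cr2, Cd79b, Ralgps2 and Cd8a without shams 1 and 4, and by Cr2, Cd79b, Ralgps2 and Cd8a without shams 2 and 3, and by Ralgps2 and Cd8a with probe sets averaged, and by Ralgps2 with no filter, and by Ralgps2 with the replicate number as a block.

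Of 17 splenic macrophage genes, 3 fell and 1 rose, and the summed signal was 22241 to 26086 on the injured arrays, against 27886 to 36412 on the sham arrays. Hpgd, which inactivates prostaglandins and is a gene of red pulp macrophages, had signals of 347, 319, 324 and 247 in injured spleens, against 2314, 2132, 1676 and 1702 in sham spleens, without overlap. Its log2 difference was -2.54 ± 0.39 (adjusted p = 3.58e-06), or 5.81-fold lower after injury on this scale. Slc40a1, the iron exporter ferroportin, had 1782, 1654, 1119.6 and 906 in injured spleens, against 4868, 4446, 3319 and 3175 in sham spleens. Slc40a1 did not overlap between the groups and had a log2 difference of -1.54 ± 0.26 (adjusted p = 1.76e-05). Adgre1, the antigen F4/80, fell (-0.75, adjusted p = 0.0335, and 0.0504 to 0.253 without injured array 2, 3 or 4 or sham array 1 or 2). Spic, the transcription factor that sets up red pulp macrophages, moved the other way, with 4015, 3249, 3140.4 and 3071 in injured spleens, against 1839, 1011, 1077 and 898 in sham spleens and a log2 difference of 1.51 ± 0.24 (adjusted p = 8.38e-06). Of 12 dendritic cell genes 2 fell and of 13 monocyte genes 1, against 1.52% of all genes tested. Itgax, the integrin CD11c, fell (-0.82, adjusted p = 0.0209, and 0.0553 to 0.161 without injured array 3 or 4 or sham array 1, 3 or 4). Ccr9, a chemokine receptor of plasmacytoid cells, fell (-0.86, adjusted p = 0.0263, and 0.0579 to 0.101 without injured array 1, 3 or 4 or sham array 1 or 2). Fn1, fibronectin, fell (-1.37, adjusted p = 0.0308, and 0.0583 to 0.127 without injured array 2, 3 or 4 or sham array 1, 2 or 3). Calls lost without shams 1 and 4 were those of Adgre1, Itgax, Ccr9 and Fn1; without shams 2 and 3, Adgre1, Itgax, Ccr9 and Fn1; with probe sets averaged, Ccr9 and Fn1; with quantile normalization, Adgre1, Itgax and Fn1; with a pseudocount of 100, Fn1; with only these arrays fitted, Adgre1. The macrophage and B cell sums were lower, and the neutrophil sum higher, on every injured array than on every sham array, and the part of cell shares in these falls was not tested.

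The other large falls were of genes with varied roles. Kcnj16, an inward-rectifier potassium channel subunit, had signals of 182, 153, 50.0 and 76.9 in injured spleens, against 1259.7, 1043, 638 and 839 in sham spleens. Kcnj16 did not overlap between the groups and had a log2 difference of -2.79 ± 0.44 (adjusted p = 5.31e-06). Tmem86a, a membrane protein of the lysoplasmalogenase family, read 171 to 299.9 in injured spleens, against 651 to 949.5 in sham spleens (-1.86 ± 0.27, adjusted p = 7.34e-07). Rnf144b, a ubiquitin ligase, read 295 to 574 in injured spleens, against 882 to 1844 in sham spleens (-1.73 ± 0.24, adjusted p = 3.35e-07). Cebpa, a transcription factor of myeloid progenitors, fell with 173, 267, 140.5 and 168 in injured spleens, against 819, 585, 974 and 434 in sham spleens and a difference of -1.72 ± 0.30 (adjusted p = 5.45e-05). Pank1, an enzyme of coenzyme A synthesis, read 85.5 to 280.1 in injured spleens, against 509 to 846 in sham spleens (-1.63 ± 0.31, adjusted p = 0.000265). Slc45a3, a solute carrier, read 47.4 to 88.3 in injured spleens, against 230.5 to 344 in sham spleens (-1.69 ± 0.44, adjusted p = 0.0117). Xkrx read 519 to 917 in injured spleens, against 1656 to 2769 in sham spleens (-1.60 ± 0.39, adjusted p = 0.00659). Arhgap39 and Ppm1e had log2 differences of -1.62 ± 0.33 (adjusted p = 0.00054) and -1.60 ± 0.30 (adjusted p = 0.000148). F13a1, a clotting factor subunit of monocytes and macrophages, fell (-1.63, adjusted p = 0.0176, and 0.0892 to 0.101 without injured array 3 or 4 or sham array 1). S1pr3, a sphingosine-1-phosphate receptor, fell (-1.63, adjusted p = 0.0142, and 0.0514 to 0.0537 without injured array 2 or 3). Iqce fell (-1.54, adjusted p = 0.00692, and 0.0654 without injured array 4). Slc45a3, Xkrx, F13a1, S1pr3 and Iqce missed the threshold without shams 1 and 4, as did Slc45a3, F13a1, S1pr3 and Iqce without shams 2 and 3, and Rnf144b and Iqce with probe sets averaged, and Slc45a3, F13a1, S1pr3 and Iqce with quantile normalization, and S1pr3 with a pseudocount of 1.

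**Figure D3:**
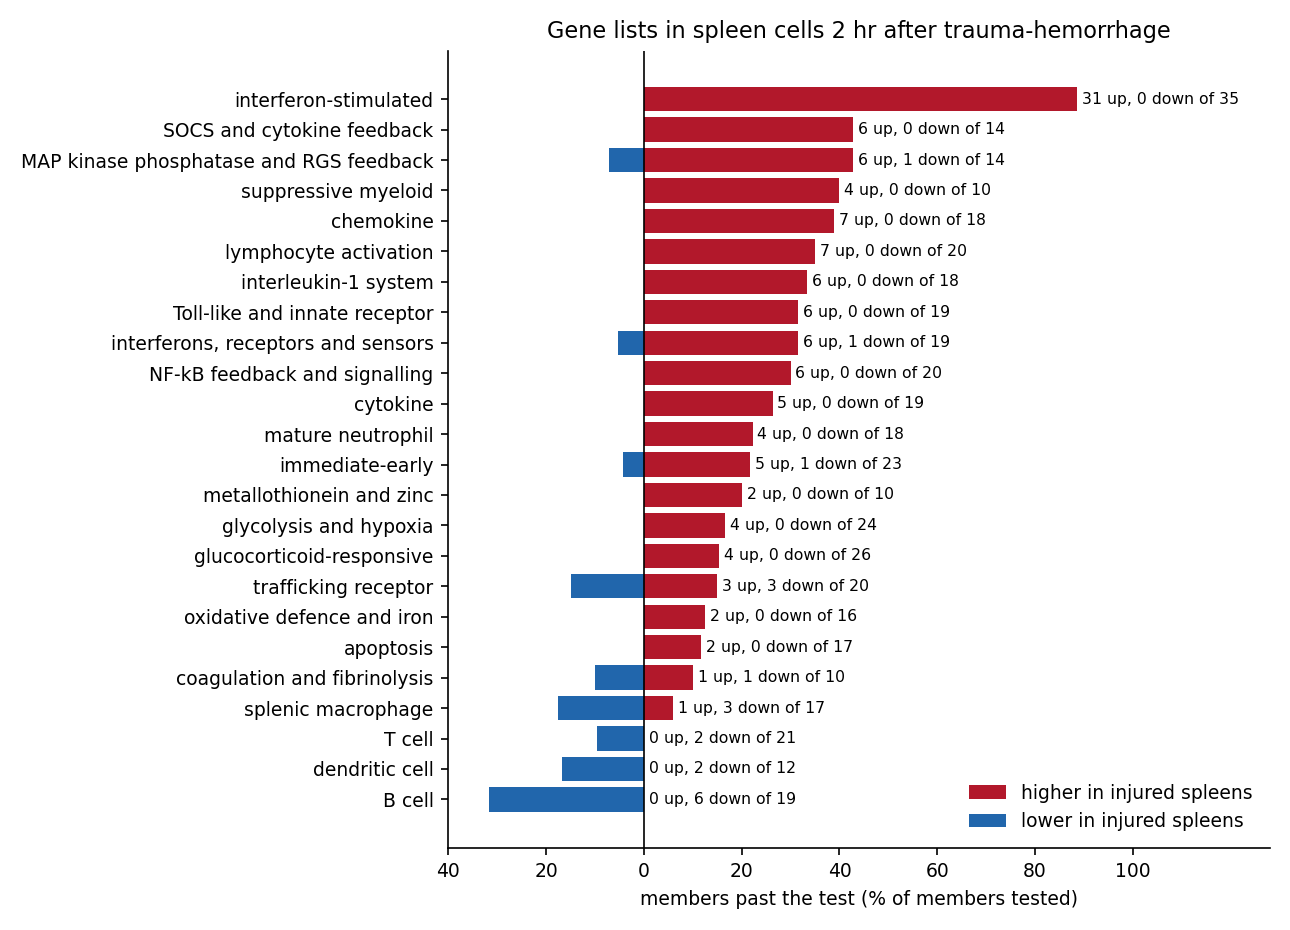
Share of the tested members of each list (%, horizontal axis) that rose or fell, for lists with at least 2 calls. Interferon-stimulated genes have the longest bar, with 31 of 35 higher after injury, and B cell genes have the most falls, 6 of 19. Over all genes tested 2.46% rose and 1.52% fell. Members and lists were chosen with earlier results of these data known.

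Several programs showed no call. None of 18 heat shock genes passed, with Hspa1b at 350.2 to 613 in injured spleens, against 347 to 749 in sham spleens (adjusted p = 0.998), and none of 18 genes of endoplasmic reticulum stress, 17 clock genes, 13 sterol synthesis genes, 24 oxidative phosphorylation subunits or 14 cytosolic ribosomal protein genes. The sterol synthesis genes leaned lower without a call, with 1 of 13 above a log2 difference of 0, against 5747 of the 13595 genes tested. Their median was -0.34, against -0.06 for all genes tested. Of the 13, 2 lay without overlap below the shams, against 7.89% of all genes tested. Their summed signal was 19350 to 20789 on the injured arrays, against 23939 to 26674 on the sham arrays, without overlap. None of 23 DNA replication, 23 mitosis or 19 erythroid genes passed, where the shams split into pairs; Alas2, the erythroid heme enzyme, read 2819.9, 2522, 1814 and 2279 in injured spleens, against 3698, 730.1, 668 and 7167 in sham spleens (adjusted p = 0.992). Pf4, a platelet chemokine, was 337 to 574 in injured spleens, against 286 to 696 in sham spleens (adjusted p = 1), and none of 14 platelet genes passed. Cela1, a pancreatic elastase, read 117, 109, 107 and 62.4 in injured spleens, against 152, 520.4, 414 and 145 in sham spleens, lower on all injured arrays, without passing (adjusted p = 0.0866). An adjusted p above the threshold does not show that these genes were unchanged.

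Burn injury at 2 hr left the interferon-stimulated genes of the spleen without a call. After burn, 517 of 13595 genes rose (3.8%) and 152 fell (1.12%), and in the test of the difference, trauma hemorrhage minus burn, 298 genes passed (2.19%), 143 with a higher effect after trauma hemorrhage (1.05%) and 155 with a lower effect (1.14%). Of the 334 genes that rose after trauma hemorrhage, 53 also rose and 4 fell after burn, and of the 207 that fell, 12 also fell and 6 rose. Of the 35 interferon-stimulated genes none passed after burn, in either direction, with a median log2 effect of -0.09, and 27 differed between the injuries. Ifit2 read 301, 311, 471 and 247 in burned spleens, against 349.7, 457, 504 and 344 in their shams, and its effect differed by 3.71 ± 0.35 (adjusted p = 4e-11) on the log2 scale. Usp18 read 240.3, 325, 395 and 257 in burned spleens, against 596, 329, 450.2 and 591 in burn shams, a difference in effect of 4.16 ± 0.44 (adjusted p = 1.16e-09). Cxcl10 read 83.6, 71.8, 149 and 178 in burned spleens, against 66.0, 70.6, 29.5 and 147 in burn shams (4.25 ± 0.51, adjusted p = 3.57e-08). In these 3 genes no burn effect passed the test (log2 effects of -0.31, -0.63 and 0.51). Ifit3, Ifit1 and Irgm1 differed by 3.76 ± 0.41 (adjusted p = 2.12e-09), 4.02 ± 0.47 (adjusted p = 2.4e-08) and 2.41 ± 0.28 (adjusted p = 2.4e-08). Samsn1, an adaptor that damps B cell activation, rose by 1.89 ± 0.16 (adjusted p = 4.82e-14) after trauma hemorrhage and differed by 1.90 ± 0.22 (adjusted p = 2.4e-08), and Tor3a, an interferon-induced ATPase, by 2.39 ± 0.29 (adjusted p = 2.91e-08).

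Other lists had more calls after burn. Of 26 glucocorticoid-responsive genes, 11 rose after burn (median 0.74), against 4 after trauma hemorrhage (median 0.25). Fkbp5, Per1 and Tsc22d3 had burn effects of 2.15 ± 0.27 (adjusted p = 6.33e-08), 2.05 ± 0.31 (adjusted p = 6.73e-06) and 1.06 ± 0.32 (adjusted p = 0.0403). In the test of the difference, 5 of the 26 were lower and 1 was higher after trauma hemorrhage: Fkbp5 and Per1 by -1.45 ± 0.38 (adjusted p = 0.0235) and -2.11 ± 0.44 (adjusted p = 0.00207), and Mt1, the higher one, by 2.30 ± 0.54 (adjusted p = 0.0075). Of 18 heat shock genes, 2 rose and 7 fell after burn, with Hspa1a at -2.80 ± 0.63 (adjusted p = 0.00296), against a log2 difference of 0.21 after trauma hemorrhage. The test of the difference called 1 of the 18 heat shock genes, Hsph1 (1.42 ± 0.34, adjusted p = 0.0091). Some genes rose in both: Crem by 3.01 ± 0.33 (adjusted p = 1.91e-09) after burn, Cd14 by 2.65 ± 0.39 (adjusted p = 3.39e-06), Hdc by 2.61 ± 0.54 (adjusted p = 0.00111) and Thbs1 by 2.62 ± 0.53 (adjusted p = 0.000833). Bcl6 rose after trauma hemorrhage (0.56, adjusted p = 0.0388, and 0.0609 to 0.123 without any 1 of the 8 arrays) and had a burn effect of -1.17 ± 0.17 (adjusted p = 1.4e-06). The 2 injuries were run with separate shams, and the difference count was 177 without trauma-hemorrhage shams 1 and 4 and 178 without shams 2 and 3.

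**Figure D4:**
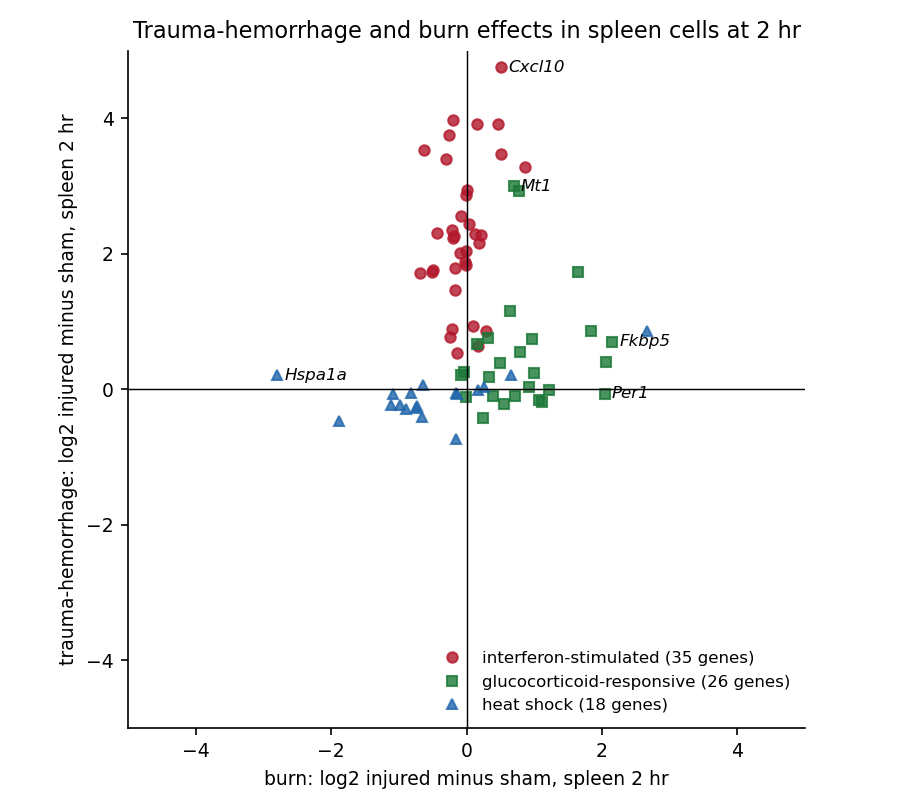
Log2 effect of trauma hemorrhage at 2 hr (vertical axis) against log2 effect of burn at 2 hr (horizontal axis) in spleen, for 35 interferon-stimulated, 26 glucocorticoid-responsive and 18 heat shock genes; each point is a gene. Interferon-stimulated genes lie high on the vertical axis near 0 on the horizontal axis, and several glucocorticoid-responsive genes lie to the right near 0 on the vertical axis.

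At 1 day after trauma hemorrhage fewer spleen genes passed. There, 87 genes rose (0.64%) and 24 fell (0.177%), and 40 of 13595 genes (0.294%) differed between the 2 hr and 1 day effects, 31 higher (0.228%) and 9 lower (0.0662%) at 2 hr. Of the 334 risers 73 also rose at 1 day and 1 fell, and of the 207 genes that fell 4 also fell. Of the 31 interferon-stimulated genes that rose at 2 hr, 28 also rose at 1 day, and none of the other 4 did. The median log2 effect of the 35 at 1 day was 1.87, and 3, Irgm1, Cxcl9 and Cxcl10, differed between the times. Cxcl9 read 227, 265, 226 and 165 in spleens at 1 day, against 247, 235, 159 and 324 in their shams, and its effect differed by 3.57 ± 0.43 (adjusted p = 1.31e-07). Cxcl10 read 293, 164, 758 and 975, against 119, 83.7, 133 and 170.0 in shams at 1 day, still higher (1.61 ± 0.36, adjusted p = 0.00769) but by less, with a difference of 3.15 ± 0.51 (adjusted p = 0.000284). Samsn1 and Plscr1, an interferon-induced phospholipid scramblase, had larger effects at 2 hr, by 1.95 ± 0.22 (adjusted p = 4.65e-08) and 2.33 ± 0.32 (adjusted p = 3.91e-06). Gja1, which codes for the gap junction protein connexin 43, rose at 2 hr, with 2936, 2465, 2478 and 2002 in injured spleens, against 359, 283, 362 and 219 in sham spleens. It read 984, 725, 322 and 174 in spleens at 1 day, against 831, 785, 160.3 and 791 in their shams (3.15 ± 0.53, adjusted p = 0.000568). Nr4a3, Gpr171, an inhibitory receptor of T cells, and Ahr, the aryl hydrocarbon receptor, differed by 1.85 ± 0.34 (adjusted p = 0.0019), 2.19 ± 0.38 (adjusted p = 0.000674) and 1.75 ± 0.30 (adjusted p = 0.000617); the calls of Nr4a3 and Ahr were lost when a gene's probe sets were averaged. The count of 40 was 18 without sham arrays 1 and 4 and 26 without injured array 3.

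At 3 and 7 days the interferon-stimulated genes that passed were 0 higher and 1 lower, and 3 higher and 1 lower, of 35. Of the 334 genes higher at 2 hr, 16 were higher and 21 lower at 3 days, where 719 genes rose (5.29%) and 332 fell (2.44%), and 6 were higher and 25 lower at 7 days, where 783 rose (5.76%) and 318 fell (2.34%). Of the 207 genes lower at 2 hr, 37 were lower and 8 higher at 3 days, and 19 lower and 21 higher at 7 days. Ifit3 had log2 effects of 3.59 ± 0.29 (adjusted p = 5.34e-14) at 1 day, -0.16 ± 0.29 (adjusted p = 0.818) at 3 days and -0.58 ± 0.29 (adjusted p = 0.252) at 7 days.

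**Figure D5:**
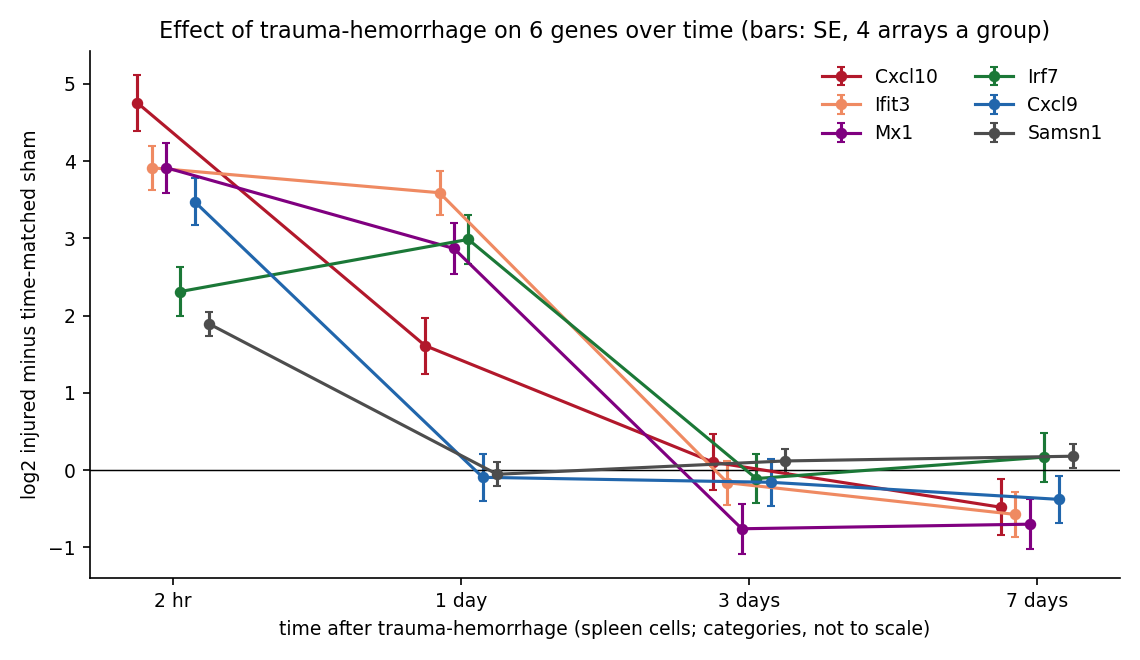
Log2 effect (injured minus sham, with standard error bars) of 6 genes in spleen at 2 hr, 1, 3 and 7 days after trauma hemorrhage. Ifit3, Mx1 and Irf7 stay above 0 at 1 day, and Cxcl9 and Samsn1 are near 0 by then.

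In blood leukocytes at 2 hr, 388 of 15703 genes rose (2.47%) and 383 fell (2.44%), and 16 genes (0.102%) differed in effect between spleen and blood, 7 higher (0.0446%) and 9 lower (0.0573%) in spleen. Of the 334 risers in spleen 165 also rose in blood and none fell there, and of the 207 that fell, 65 also fell and none rose. Of the 35 interferon-stimulated genes 29 rose in blood, and 1, Ifit2 (1.74, adjusted p = 0.0241), differed between the tissues. Pmvk, an enzyme of sterol synthesis, read 1423, 1169, 950.0 and 1361 in injured spleens, against 637, 661, 721 and 530.1 in sham spleens, and 5086, 4545, 1951 and 7550.4 in injured blood, against 326, 319, 371 and 462 in sham blood; its effect was lower in spleen by -2.54 ± 0.34 (adjusted p = 3.7e-07). Thbs1 rose in spleen and read 16104, 14611, 13476 and 15887 in injured blood, against 10239, 11883, 8668 and 9211 in sham blood, so that its effect was higher in spleen by 3.27 ± 0.68 (adjusted p = 0.0116). Nfkbie and Tnip1, inhibitors of NF-kB, had effects lower in spleen by -2.05 ± 0.37 (adjusted p = 0.00144) and -1.55 ± 0.32 (adjusted p = 0.0116), and Hsd11b1, which regenerates active glucocorticoid, by -2.14 ± 0.36 (adjusted p = 0.000383). Rnf144b fell in spleen and differed by -2.10 ± 0.40 (adjusted p = 0.0026). Ctc1, of the telomere replication complex, and 1700011B04Rik differed by 1.69 ± 0.36 (adjusted p = 0.0169) and 2.56 ± 0.55 (adjusted p = 0.0199). Thbs1, Rnf144b, Tnip1, Ctc1 and 1700011B04Rik lost the call under a change of shams, and Tnip1, Ctc1 and 1700011B04Rik without a single spleen array (injured array 3 or sham array 4, injured array 4, and sham array 4). The count was 10 without sham spleen arrays 1 and 4, 5 without sham spleen arrays 2 and 3, and 6 to 15 when any single spleen array was left out.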

How the data were processed

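Splenocyte RNA of single mice was measured on Affymetrix Mouse Genome 430 2.0 arrays. The deposited values are linear MAS5 intensities made with GCOS 1.4, per the submitters' processing notes, and each array used has a trimmed mean of 500; 16 columns of the series (LPS arrays on another scale) were not used. Annotation gave 1 gene for 34945 of 45101 probe sets, several for 932 and none for 9160. The brightest probe set was kept for each of 18193 genes, of which 18032 matched the RefSeq table. Probe sets of the _x_at type were taken only where a gene had no other. Those of the _s_at type, which can be shared between transcripts, were not avoided, and Mt1, Hpgd, Slc45a3 and S100a8 were read on such sets. Values were analysed as log2(signal + 32) in limma 3.58.1 under R 4.3.3, with a mean-dependent prior and Benjamini-Hochberg adjustment over all genes tested. Genes above their array's median on at least 4 arrays entered, 13595 in the spleen fit of 64 arrays and 15703 in the fit of 128 arrays that holds blood. The number of arrays limits the precision, and p-values measure the spread between mice.

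Named genes were the 15 largest rises and 15 largest falls without overlap and with a mean signal of at least 200, up to 8 members a list by smallest p, a fixed set of injury genes, and the 8 smallest p of each difference test. In the 3 fits of differences the effects were compared by contrasts. The members and lists were chosen with earlier results of these data known. Alternatives were pseudocounts of 1 and 100, quantile normalization, a test with no filter, probe sets averaged by gene, only the arrays compared, blocks for replicate number and hybridization day, covariates for control level and Gapdh ratio, each array left out, and, added after seeing the data, pairs of shams left out. The numbered replicates were not taken as pairs in the main fit. Deviations of same-numbered arrays correlated at 0.265, -0.067, 0.426 and 0.052, against -0.403 to 0.26 for arrays of unlike number. By replicate number, array medians were 57.8, 74.7, 93.6 and 61.2 in injured spleens, against 63.0, 80.5, 98.6 and 58.8 in sham spleens. Whether same-numbered arrays shared a step of handling was not tested. The fit was tested on simulated log2 values with independent noise for each gene. These did not hold the split between the shams, so that test cannot show how the calls fare under it.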

Additional observations from a re-analysis of the deposited data

Results flagged for a closer look

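In 378 groups of 4 arrays of the genes named, 22 held a value farther from the rest than Dixon's test at the 95% level allows, and chance gives about 1 in 20. Among injured spleens these signals were Il1a on injured array 1 (104.9), Ccrl2 on injured array 1 (450.7), Itgb7 on injured array 3 (788.2), Arg2 on injured array 1 (1857), Gadd45g on injured array 3 (1377), Dusp16 on injured array 3 (1514), Cdkn1a on injured array 3 (564.9), S100a8 on injured array 4 (24051), Cela1 on injured array 4 (62.41), Hspa1a on injured array 4 (51.48) and Ifih1 on injured array 2 (1558). Among sham spleens they were Mx2 on sham array 1 (39.42), Il6 on sham array 3 (50.25), Il1r2 on sham array 4 (137.6), Tnfaip2 on sham array 2 (52.38), Cd274 on sham array 3 (3636), Tnfrsf9 on sham array 3 (447.7), Casp8 on sham array 3 (2172), Prdm1 on sham array 4 (248.9), Tmem86a on sham array 3 (650.8), Ahr on sham array 4 (629.3) and Oas2 on sham array 1 (103.7). Sham array 3 was the odd one for 5 of the 11 sham values.

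The effect of trauma hemorrhage at 2 hr in spleen differed from that of burn, by the interaction test, in log2 terms for Ifit2 (3.71), Usp18 (4.16), Ifit3 (3.76), Samsn1 (1.90), Ifit1 (4.02), Irgm1 (2.41), Tor3a (2.39) and Cxcl10 (4.25). It differed from the effect at 1 day for Samsn1 (1.95), Cxcl9 (3.57), Plscr1 (2.33), Cxcl10 (3.15), Gja1 (3.15), Ahr (1.75), Gpr171 (2.19) and Nr4a3 (1.85). The effect in spleen differed from that in blood for Pmvk (-2.54), Hsd11b1 (-2.14), Nfkbie (-2.05), Rnf144b (-2.10), Tnip1 (-1.55), Thbs1 (3.27), Ctc1 (1.69) and 1700011B04Rik (2.56), with negative values lower in spleen.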

How the results depend on the processing

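Main counts were 541 genes for trauma hemorrhage against sham in spleen at 2 hr, 298 for its effect minus that of burn, 40 for 2 hr minus 1 day and 16 for spleen minus blood. Fitting only the arrays compared gave 1091 genes (574 higher and 517 lower), 196 for the burn difference and 3 for the blood difference. List counts moved with it too, with 11 SOCS and cytokine feedback genes higher against 6, 11 lymphocyte activation genes against 7, 8 cytokines against 5, 5 coagulation genes against 1, and 6 T cell genes lower against 2. Leaving out shams 1 and 4 gave 258, 177, 18 and 10 in the same order, and leaving out shams 2 and 3 gave 328, 178 and 5 for the main, burn and blood counts; the cause was not tested. Within the hybridization day of arrays 1 and 2 the main count was 110, and within that of arrays 3 and 4 it was 247. Each of these contrasts compared 4 arrays, with the spread estimated over all 64 spleen arrays. Leaving out 1 array at a time gave 348 to 495 genes, 238 to 265 for burn, 26 to 46 for 1 day and 6 to 15 for blood. Quantile normalization gave 24 for the 1 day difference and 10 for blood, the control level as a covariate 83 for 1 day, and a pseudocount of 100 gave 32 for blood; the causes were not tested. The control covariate moved the split of the burn difference to 196 higher and 119 lower, against 143 and 155. With the replicate number as a block the counts were 528, 359, 40 and 20, and it changed no other call named here than that of Ralgps2. Deviations of same-numbered arrays correlated at -0.067 to 0.426, and the main fit did not take the numbers as pairs. Without shams 1 and 4 the median log2 difference of all genes was -0.11, against -0.06. Of 147 genes named with a call at 2 hr, 60 kept it within the hybridization day of arrays 1 and 2, and 89 within that of arrays 3 and 4. The call was kept by 108 when any 1 array was left out, 92 without shams 1 and 4, and 106 without shams 2 and 3. It was kept by 126 under quantile normalization, 125 with probe sets averaged, 142 with no filter, 140 with a pseudocount of 1 and 145 with one of 100. None of the 147 changed direction in any alternative.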

Other observations

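Outside the lists already described, a few lipid and tissue genes moved. Lipg, which codes for endothelial lipase, had signals of 320.1, 287, 467 and 483 in injured spleens, against 25.1, 1.37, 36.3 and 86.9 in sham spleens, without overlap, and rose by 2.72 ± 0.63 (adjusted p = 0.00393), the single riser of 16 genes of fatty acid fuel use and lipases. Cxcl13, the follicle chemokine that draws B cells, had 168, 312, 589.9 and 695 in injured spleens, against 143, 182, 191 and 78.4 in sham spleens and rose (1.27, adjusted p = 0.044, and 0.0503 to 0.283 without injured array 2, 3 or 4 or sham array 1, 2, 3 or 4), 1 of 14 stroma and vessel genes. Ptger4, a receptor of prostaglandin E2, was the single riser of 15 prostaglandin and leukotriene genes (0.58, adjusted p = 0.0137, and 0.0662 to 0.0762 without injured array 4 or sham array 4). With 2.46% of all genes tested higher, 1 call in each of these lists is not read as a result about the list. Lipg did not pass without shams 2 and 3, and Cxcl13 and Ptger4 did not pass without shams 1 and 4 or without shams 2 and 3. Cxcl13 also missed the threshold with probe sets averaged, with no filter, with pseudocounts of 1 and 100 and with quantile normalization.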
